A study of Homo sapiens with 12 samples.

Results

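The actin cytoskeleton and contractile genes described here are 32 genes chosen by symbol. They were read from the rows that bear those symbols in the tables of 2 human cell lines, the hepatoma line HCCLM3 and the hepatic stellate line LX2. All 32 had a row among the 60612 genes of the HCCLM3 table, and 31 among the 32507 genes of the LX2 table, where CNN1 had none. No symbol was shared by several rows. Of the 32 genes, 5 are widely used as markers of stellate cell activation (ACTA2, TAGLN, CNN1, DES and VIM) and the other 27 are taken as general actin genes. Some of these were low in level, such as MYL9 in HCCLM3 and CNN3 in LX2. The 12 libraries of polyadenylated RNA fall into 4 groups of 3, namely HCCLM3 with LX2, HCCLM3 alone, LX2 with HCCLM3, and LX2 alone. All cells were labelled wild type and were grown in a tumor-on-a-chip, a small perfused culture device. Time in culture and the way the lines were parted before RNA was taken are not stated in the labels. Each line is a single established line, and the labels do not say whether replicates were separate cultures, so the spread behind each p-value may be technical.

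Actin monomers join into filaments, which are bundled by crosslinking proteins, pulled by non-muscle myosin and tied to the matrix at focal adhesions. Profilin and cofilin feed and trim the filaments. When monomeric actin runs low, its partner proteins of the MRTF family enter the nucleus and, with serum response factor (SRF), switch on actin and adhesion genes through a DNA element called the CArG box. Stellate cells store vitamin A in the healthy liver and, once activated, take on a contractile form known for smooth muscle actin (ACTA2), transgelin (TAGLN) and calponin 1 (CNN1).

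Promoter windows of 250 bases before to 50 bases after a start were held for 28 of the 32 genes (RefSeq, GRCh38.p14). TAGLN, DES, MYL9 and ACTB had no window and were not searched. The CArG box was searched on both strands in its exact form CCWWWWWWGG, where W is A or T. It was in a window of 8 of these 28 genes (28.6%), against 1.6% of 27305 genes. CATTCC, the core of the element read by TEAD factors, was searched on both strands too, so that it also appears as GGAATG. It was in a window of 10 of the 28 genes (35.7%), against 16.7% of all genes. Members had more windows per gene than other genes, and by window the CArG box was in 15.4% of 52 member windows, against 1.29% of 35116 windows, and CATTCC in 23.1%, against 14%. A match is a run of letters in a window, and binding was not measured. The 8 genes with a CArG box of this exact form were SRF, FLNA, ACTG1, LPP, ACTN1, TGFB1I1, CNN2 and TPM4. Forms a letter off it, such as ccctatatgg in the ACTA2 stretch below, were not counted or marked. A gene outside this list may thus still hold such a form. The stretches below belong to SRF itself, to FLNA and ACTG1, which fell in both lines in co-culture, to LPP, which was higher in both, and to ACTA2, the leading activation marker. They lie 5′ to 3′ on the strand of each gene, and capitals mark the CArG box or, in ACTA2, GGAATG. Their places are chr6:43171069-43171268 on the plus strand for SRF, chrX:154374715-154374834 on the minus strand for FLNA, chr17:81512880-81512999 on the minus strand for ACTG1, chr3:188212512-188212640 on the plus strand for LPP and chr10:88952774-88952973 on the minus strand for ACTA2.
SRF: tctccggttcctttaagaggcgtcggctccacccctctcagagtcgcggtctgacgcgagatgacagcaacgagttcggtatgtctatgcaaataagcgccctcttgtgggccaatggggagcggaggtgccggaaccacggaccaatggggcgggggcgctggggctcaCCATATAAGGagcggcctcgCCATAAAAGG
FLNA: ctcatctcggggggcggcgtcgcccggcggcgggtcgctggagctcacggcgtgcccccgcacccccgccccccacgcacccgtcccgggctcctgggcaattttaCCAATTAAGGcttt
ACTG1: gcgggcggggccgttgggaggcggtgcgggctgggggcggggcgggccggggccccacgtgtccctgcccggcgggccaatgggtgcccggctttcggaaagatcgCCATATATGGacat
LPP: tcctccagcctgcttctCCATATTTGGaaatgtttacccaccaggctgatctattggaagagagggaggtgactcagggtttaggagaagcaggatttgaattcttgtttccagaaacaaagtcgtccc
ACTA2: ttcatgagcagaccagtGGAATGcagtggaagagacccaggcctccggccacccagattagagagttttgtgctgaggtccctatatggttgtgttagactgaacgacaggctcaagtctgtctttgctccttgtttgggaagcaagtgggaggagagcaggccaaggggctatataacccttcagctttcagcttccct
SRF held the CArG box at 2 places, starting 30 and 10 bases before the transcription start. In both FLNA and ACTG1 the box started 94 bases before the start, and in LPP 183 bases before it. In ACTA2 the marked letters started 183 bases before the start.

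Libraries held 65675929 to 68178411 counts in HCCLM3 with LX2, 68088914 to 77712308 in HCCLM3 alone, 64438991 to 69891842 in LX2 with HCCLM3 and 61836616 to 65314354 in LX2 alone. Epithelial markers (5 of 5 listed) summed to 629.9 to 731.6 FPKM in HCCLM3 with LX2 and 990.3 to 1131 FPKM in HCCLM3 alone. Of 14 stellate cell and fibroblast markers, 13 were listed for LX2, and LRAT was not listed. COL1A2, COL6A3, SPARC and POSTN were at 0 in every library of LX2 alone, and 3 of the 13 had a mean of at least 1 FPKM there. The stellate and fibroblast markers summed to 7.19 to 7.55 FPKM in LX2 alone and 13.93 to 15.32 FPKM in HCCLM3 alone. Epithelial markers summed to 40.75 to 42.22 FPKM in LX2 alone. The stellate identity of LX2 thus rests on the labels. Erythroid markers summed to 73.2 to 100.4 FPKM in HCCLM3 with LX2 and 0 to 0.0471 FPKM in HCCLM3 alone. Granulocyte and leukocyte markers summed to 11.9 to 16.8 FPKM in HCCLM3 with LX2 and 0.465 to 0.717 FPKM in HCCLM3 alone. Endothelial markers summed to 15.8 to 17.3 FPKM in HCCLM3 with LX2 and 32.7 to 42.1 FPKM in HCCLM3 alone, and hepatocyte markers to 3.37 to 3.74 FPKM with LX2 and 0.662 to 0.896 FPKM alone. The part of these transcripts of other cell types in the changes of HCCLM3 was not tested.

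Levels are given in FPKM, fragments scaled to gene length and to library depth. The length used was that of all annotated exons joined, which sets low the level of a gene whose main transcript is shorter, such as CFL1 or TPM4. In HCCLM3 alone the highest levels were those of ACTB (beta-actin, 682 ± 42.1 FPKM; SD, n = 3), PFN1 (profilin 1, 645 ± 54.6 FPKM) and ACTG1 (gamma-actin, 578 ± 44.6 FPKM). Neighbours in that order were closer than their summed spread. In LX2 alone the same 3 genes stood at 458 ± 5.78, 365 ± 4.47 and 391.6 ± 99.02 FPKM. Summed over the 32 genes, the share of all FPKM was 0.866% ± 0.0231 in HCCLM3 with LX2 and 0.972% ± 0.0126 in HCCLM3 alone. In LX2 the summed share was 0.792% ± 0.00951 with HCCLM3 and 0.882% ± 0.0183 alone. In both lines the libraries of the groups did not overlap in this share.

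The activation markers did not move together in LX2. ACTA2 (ENSG00000107796, chr10:88935074-88991339, minus strand) had 616, 789 and 616 counts in LX2 with HCCLM3 and 303, 298 and 338 counts in LX2 alone. On the FPKM scale its levels were 2.70, 3.23 and 2.48 in LX2 with HCCLM3 and 1.3, 1.35 and 1.45 in LX2 alone. Every co-cultured library stood above every library alone, and ACTA2 rose 2-fold (log2 fold change 1.0, SE 0.128; edgeR quasi-likelihood test with Benjamini-Hochberg adjusted p = 0.00175). A call here is an adjusted p under 0.05, two-sided, over all genes tested. ACTA2 remained a low gene on this scale, under 4 FPKM in each library, where VIM stood above 150. In HCCLM3 it had 0, 0 and 11 counts with LX2 and 0, 0 and 9 counts alone, which was too low for a test. Exons of FAS, on the opposite strand, share 12.8% of the exonic bases of ACTA2, and the strand setting of the counting is unknown here. FAS averaged 1214 counts in LX2 with HCCLM3 and 1225 counts in LX2 alone. The 13 listed stellate and fibroblast markers summed to 10.4 to 10.8 FPKM in LX2 with HCCLM3 and 7.19 to 7.55 FPKM in LX2 alone, and their part in the rise of ACTA2 was not tested. With 1 fit over all 12 libraries ACTA2 had an adjusted p of 0.43.

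TAGLN, an actin-binding protein of contractile cells, was lower in level than ACTA2 in every LX2 library. Its counts were 28, 113 and 42 in LX2 with HCCLM3 and 67, 197 and 251 in LX2 alone. The groups overlapped, and TAGLN was not called (log2 fold change -1.61, 95% interval -3.20 to -0.018; edgeR quasi-likelihood Benjamini-Hochberg adjusted p = 0.115). Without LX2 with HCCLM3 replicate 2, the highest co-cultured library, the adjusted p was 0.0475, and DESeq2 gave 0.0311. PCSK7, which shares 11.4% of the exonic bases of TAGLN on the opposite strand, averaged 2813 counts in LX2 with HCCLM3 and 3631 counts in LX2 alone, far above TAGLN itself. In HCCLM3 TAGLN had 419, 89 and 200 counts with LX2 and 158, 235 and 294 counts alone, with no order between the groups.

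VIM, the intermediate filament vimentin, was the one abundant activation marker. It stood at 164, 184 and 152 FPKM in LX2 with HCCLM3 and at 185, 154 and 188 FPKM in LX2 alone. The groups overlapped, and the interval of its log2 fold change ran from -0.34 to 0.13 (not called, edgeR adjusted p = 0.477). In HCCLM3 it stood at 1.96, 2.33 and 2.75 FPKM with LX2 and at 1.39, 1.49 and 3.36 FPKM alone, where replicate 3 stood above the other libraries. It was not called there (log2 fold change 0.01, interval -0.80 to 0.82). DES, which encodes desmin, had 0, 4 and 0 counts in LX2 with HCCLM3 and 8, 26 and 0 counts in LX2 alone, and 0 in all 6 libraries of HCCLM3, where a count of 0 allows up to 3 counts, or 0.0457 CPM in the shallowest library. CNN1 had 14, 8 and 4 counts in HCCLM3 with LX2 and 46, 26 and 33 counts in HCCLM3 alone. These groups did not overlap, but CNN1 narrowly missed the threshold (log2 fold change -2.02, interval -3.52 to -0.52; edgeR adjusted p = 0.0636), and DESeq2 called it (adjusted p = 0.0323).

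**Figure D1:**
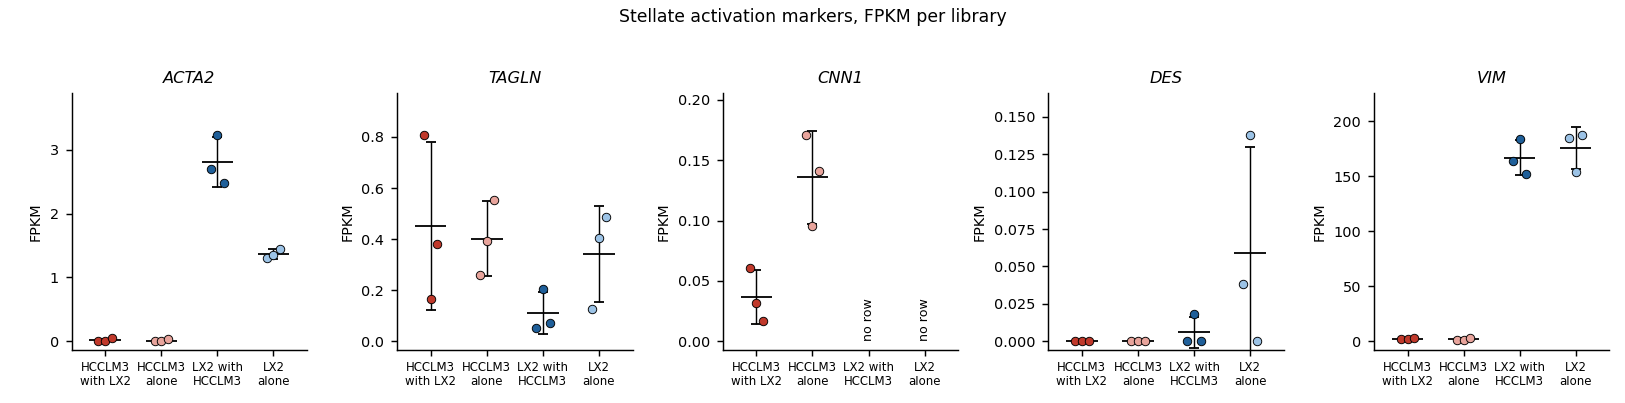
Level in FPKM (linear axis, own scale per gene) of the 5 activation markers in each library. Points are libraries, horizontal lines means and bars 1 SD (n = 3). ACTA2 stands at 2.48 to 3.23 FPKM in LX2 with HCCLM3, above the 1.3 to 1.45 FPKM of LX2 alone, while VIM overlaps between these groups.

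In HCCLM3 with LX2 crosslinkers, zyxin, gamma-actin and the myosin heavy chain MYH9 were lower than in HCCLM3 alone, and CNN3 and LPP were higher. In bulk RNA, fewer cells of a type and less RNA per cell cannot be told apart. Of 30 of the 32 genes tested there, 11 fell, 2 rose and 17 were not called. That is 43.3% called, beside a background of 21.7% of the 18045 genes tested in either direction. Genes that fell made 36.7% of the tested members and 11.6% of all genes, and genes that rose made 10.1% of all genes. Among genes with a mean of at least 1000 counts, 30.4% were called and 21.5% were lower. The median log2 fold change was -0.166 over the tested members and 0.033 over all genes. Calls and fold changes are relative to TMM scaling, while FPKM is scaled to library totals. Ratios of the FPKM given here thus differ from the folds, and in HCCLM3 the log2 fold changes lie below them. ACTG1, for example, had a log2 fold change of -0.55 with TMM scaling and -0.38 on library totals. On library totals the median of all genes shifted to 0.207, and then 4 members were lower and 3 higher, while over all genes the split turned from 1829 higher and 2095 lower to 2973 higher and 1039 lower. FPKM of the groups did not overlap in 13 members, beside 44.2% of all genes tested, which is close to the background.

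Among adhesion genes of HCCLM3, ZYX fell and LPP rose. ZYX (ENSG00000159840, chr7:143381295-143391111, plus strand) encodes zyxin, which marks mechanically loaded focal adhesions. It stood at 33.2, 34.3 and 32.5 FPKM in HCCLM3 with LX2 and at 55.2, 52.5 and 58.0 FPKM in HCCLM3 alone. The gap between the groups was many times the spread within each, a 1.86-fold fall on TMM-scaled counts (log2 fold change -0.89, SE 0.068; edgeR adjusted p = 0.000736). LPP (ENSG00000145012, chr3:188153284-188890671, plus strand), the lipoma preferred partner, is a LIM protein of the zyxin family. It stood at 3.33, 3.67 and 3.57 FPKM in HCCLM3 with LX2 and at 1.08, 1.27 and 1.5 FPKM in HCCLM3 alone, a 2.45-fold rise (log2 fold change 1.29, SE 0.117; adjusted p = 0.00119). The transcripts of these relatives moved in opposite directions in the same libraries. TLN1 (talin 1, which links integrins to actin) had a log2 fold change of -0.37 and an adjusted p of 0.0485, and its call was lost whichever library other than HCCLM3 with LX2 replicate 2 was left out (adjusted p up to 0.139). VCL (vinculin), PDLIM5, PDLIM7 and TGFB1I1 (HIC-5, a paxillin relative) were not called. VCL stood at 12.9 ± 1.63 FPKM with LX2 and 13.0 ± 1.74 FPKM alone (interval of the log2 fold change -0.46 to 0.11).

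All 4 crosslinkers were lower in HCCLM3 with LX2. FLNA (ENSG00000196924, chrX:154348524-154374638, minus strand) encodes filamin A, which holds filaments in a mesh. It stood at 136, 183 and 148 FPKM in HCCLM3 with LX2 and at 243, 280.5 and 247 FPKM in HCCLM3 alone. The highest co-cultured library stayed below the lowest library alone, and FLNA fell 1.85-fold (log2 fold change -0.89, SE 0.112; adjusted p = 0.00332). LIMA1 (EPLIN, a filament stabiliser) stood at 13.5, 18.7 and 16.9 FPKM in HCCLM3 with LX2 and at 19.3, 23.8 and 19.5 FPKM in HCCLM3 alone (log2 fold change -0.51; adjusted p = 0.036). ACTN4 and ACTN1 are the alpha-actinins of non-muscle cells. ACTN4 stood at 103.0, 123 and 117 FPKM with LX2 and at 116, 148 and 141 FPKM alone (log2 fold change -0.40; adjusted p = 0.0324). ACTN1 stood at 12.7, 12.9 and 13.3 FPKM with LX2 and at 13.5, 15.5 and 13.99 FPKM alone (log2 fold change -0.31; adjusted p = 0.0256). The groups overlapped in ACTN4 and lay close together in LIMA1 and ACTN1. These calls rest on all 6 libraries: that of ACTN1 or ACTN4 was lost when any library but HCCLM3 alone replicate 1 was left out, and that of LIMA1 when any but HCCLM3 with LX2 replicate 2 was left out. The adjusted p then reached 0.0774 for ACTN1, 0.096 for ACTN4 and 0.0911 for LIMA1. On library totals they had adjusted p-values of 0.235, 0.179 and 0.131.

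Of the cytoplasmic actins of HCCLM3, ACTG1 was called. It stood at 373, 491 and 464 FPKM in HCCLM3 with LX2 and at 589, 616 and 529 FPKM in HCCLM3 alone, a 1.47-fold fall (log2 fold change -0.55, SE 0.112; adjusted p = 0.0166). ACTB stood at 694, 494 and 670 FPKM in HCCLM3 with LX2 and at 639, 683 and 723 FPKM in HCCLM3 alone. Only replicate 2 of the co-culture was low, and ACTB was not called (log2 fold change -0.30, interval -0.63 to 0.027). The share of ACTG1 in the summed FPKM of both actins was 41.9% ± 7.51 with LX2 and 45.9% ± 3.16 alone. Without HCCLM3 with LX2 replicate 3, ACTG1 had an adjusted p of 0.0504, and on library totals of 0.0561.

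Of the genes of filament turnover, CFL1 and VASP fell (2 of 3), and of those of the motor and its control, MYH9 fell (1 of 4). CFL1 (cofilin 1, which severs filaments) stood at 63.0, 53.6 and 56.9 FPKM in HCCLM3 with LX2 and at 69.0, 72.2 and 82.0 FPKM in HCCLM3 alone, a 1.44-fold fall (log2 fold change -0.53; adjusted p = 0.0111, and 0.0501 without HCCLM3 with LX2 replicate 3). VASP, which speeds filament growth at the barbed end, stood at 27.8, 31.3 and 27.5 FPKM with LX2 and at 40.0, 40.3 and 30.0 FPKM alone, where replicate 3 overlapped the co-culture. Its call (log2 fold change -0.52; adjusted p = 0.0337) was lost when any library but HCCLM3 alone replicate 3 was left out (up to 0.109). PFN1 stood at 674 ± 30.2 FPKM with LX2 and 645 ± 54.6 FPKM alone and was not called. MYH9, the heavy chain of non-muscle myosin IIA, stood at 60.5, 72.4 and 63.2 FPKM in HCCLM3 with LX2 and at 83.1, 95.2 and 88.2 FPKM in HCCLM3 alone, a 1.53-fold fall with no overlap (log2 fold change -0.61, SE 0.082; adjusted p = 0.00411). MYH10, the IIB heavy chain, spread from 5.42 to 12.7 FPKM with LX2 and from 7.29 to 16.0 FPKM alone and was not called. SRF itself stood at 12, 13.0 and 13.2 FPKM in HCCLM3 with LX2 and at 14.3, 14.7 and 15.3 FPKM in HCCLM3 alone, a 1.3-fold fall (log2 fold change -0.38, SE 0.071; adjusted p = 0.0123). Its call was lost on library totals (adjusted p = 0.0945).

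CNN3 stood against this direction. It encodes calponin 3, a calponin found in non-muscle cells (ENSG00000117519, chr1:94896949-94927223, minus strand). Its levels were 51.8, 54.9 and 51.4 FPKM in HCCLM3 with LX2 and 21.7, 24.6 and 24.9 FPKM in HCCLM3 alone, a 1.98-fold rise (log2 fold change 0.99, SE 0.072; adjusted p = 0.000691). CNN2 stood at 26.2 ± 4.81 FPKM with LX2 and 24.7 ± 1.91 FPKM alone and was not called. CNN3 thus held 67.0% ± 3.16 of the summed FPKM of the calponins with LX2 and 48.9% ± 3.33 alone. The transgelin TAGLN2 stood at 246, 238 and 237 FPKM in HCCLM3 with LX2 and at 191, 164 and 193 FPKM in HCCLM3 alone. It was not called relative to TMM (log2 fold change 0.23; adjusted p = 0.104), and it was on library totals (log2 fold change 0.40; adjusted p = 0.0146). Tropomyosins, which coat filaments, showed no called change in HCCLM3, with TPM2 at 149 ± 2.57 FPKM with LX2 and 148 ± 11.6 FPKM alone. MYL9, a myosin light chain, had an interval of -0.25 to 2.11 log2 units, and PDLIM5 one of -0.99 to 1.44.

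Leaving out HCCLM3 with LX2 replicate 3 brought the called members of HCCLM3 to 6, and leaving out HCCLM3 with LX2 replicate 1 or HCCLM3 alone replicate 2 brought them to 8. CNN3, FLNA, LPP, MYH9 and ZYX were called under every alternative and with each library left out.

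**Figure D2:**
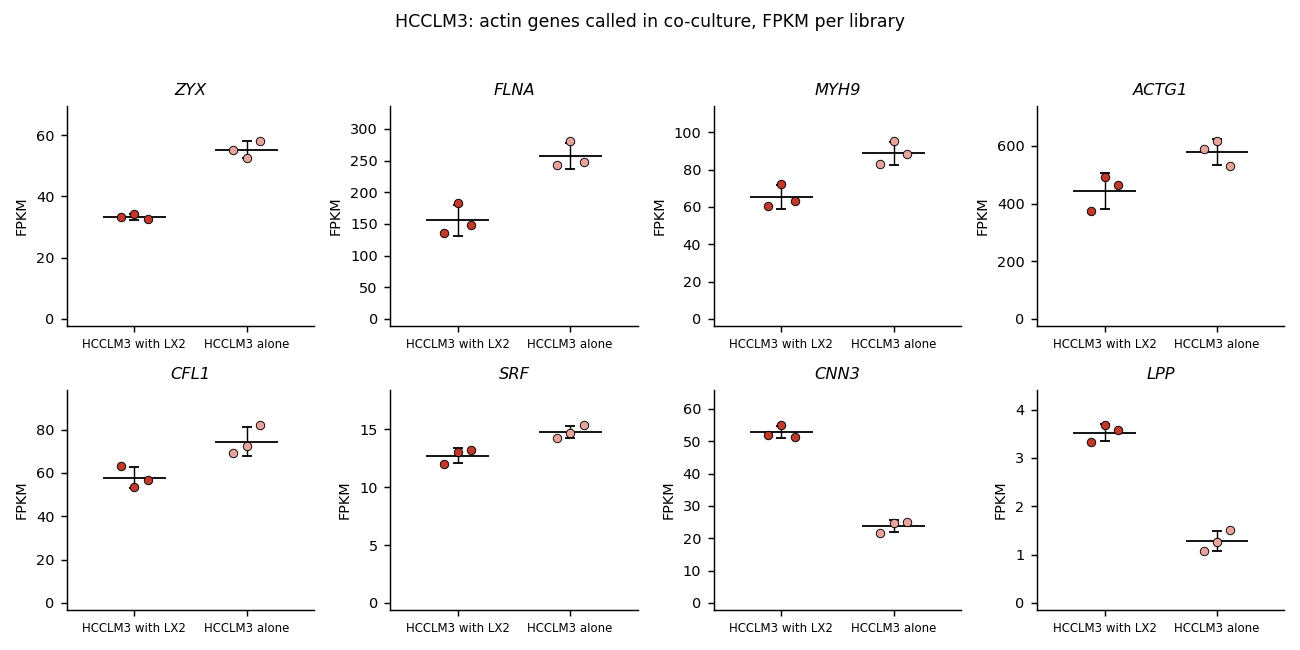
Level in FPKM (linear axes from 0) of 8 called genes in HCCLM3 with LX2 and HCCLM3 alone. Points are libraries, lines means and bars 1 SD (n = 3). ZYX, FLNA, MYH9, ACTG1, CFL1 and SRF are lower in each library with LX2, and CNN3 and LPP are higher.

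In LX2 more of these genes were called, and in both directions. Of 30 tested, 12 fell, 7 rose and 11 were not called, 63.3% called beside a background of 31.9% of the 19671 genes tested. Members that fell made 40% of those tested, against 16.6% of all genes, and 15.4% of all genes rose. Among genes with a mean of at least 1000 counts, 44.9% were called and 25.9% were lower. The median log2 fold change was -0.183 over the members and 0.015 over all genes. FPKM did not overlap between groups in 20 members, beside 48.1% of all genes tested. Without LX2 alone replicate 1 the members called were 12. With 1 fit over all 12 libraries, which takes its spread from HCCLM3 too, they were 11: ACTA2, ACTB, ACTN4, FLNA, MYH9, PFN1, TGFB1I1 and TLN1 were not called there, with adjusted p-values of 0.0848 to 0.43.

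The largest fall among called members of LX2 was that of PDLIM7 (ENSG00000196923, chr5:177483394-177497601, minus strand), a PDZ and LIM domain protein of stress fibres. It stood at 12.2, 12.3 and 11.8 FPKM in LX2 with HCCLM3 and at 25.0, 27.9 and 27.0 FPKM in LX2 alone. Its fall of 2.24-fold was far outside the spread of the libraries (log2 fold change -1.17, SE 0.050; edgeR adjusted p = 1.89e-05). Of the other adhesion genes, TGFB1I1 stood at 3.41, 3.55 and 4.02 FPKM with HCCLM3 and at 5.24, 4.95 and 5.38 FPKM alone, a 1.44-fold fall (log2 fold change -0.53; adjusted p = 0.00325). ZYX had a log2 fold change of -0.47 (adjusted p = 0.0278), which was lost without LX2 alone replicate 1 or 3 or LX2 with HCCLM3 replicate 2 or 3 (adjusted p 0.0849 to 0.0877). TLN1 rose by a small but tight step, with 25.4, 24.8 and 25.6 FPKM in LX2 with HCCLM3 and 21.4, 21.9 and 21.7 FPKM in LX2 alone (log2 fold change 0.19, SE 0.025; adjusted p = 0.0019). LPP rose too (1.66 ± 0.0794 FPKM with HCCLM3 and 1.28 ± 0.128 FPKM alone; adjusted p = 0.0206), a call lost without LX2 alone replicate 1 or LX2 with HCCLM3 replicate 1 or 3 (adjusted p 0.0588 to 0.0667). VCL stood at 28.7 ± 0.318 FPKM with HCCLM3 and 28.4 ± 0.566 FPKM alone, and its interval excluded log2 changes beyond -0.077 and 0.048.

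Filament coats and brakes of LX2 parted. TPM2 stood at 41.7, 43.2 and 43.4 FPKM in LX2 with HCCLM3 and at 56.7, 58.1 and 57.3 FPKM in LX2 alone, a 1.37-fold fall (log2 fold change -0.45, SE 0.030; adjusted p = 0.000113). CALD1, caldesmon, which holds back myosin on actin, stood at 25.8, 26.4 and 26.1 FPKM in LX2 with HCCLM3 and at 19.1, 19.5 and 19.8 FPKM in LX2 alone, a 1.31-fold rise (log2 fold change 0.39, SE 0.027; adjusted p = 0.00012). TAGLN2 rose as well, with 259, 238 and 247 FPKM in LX2 with HCCLM3 and 182, 172 and 172 FPKM in LX2 alone (log2 fold change 0.47; adjusted p = 0.000284). In all 3 genes the groups lay apart by more than their spread. TPM4 could not be resolved: it stood at 62.1, 48.1 and 35.5 FPKM with HCCLM3 and at 26.0, 27.0 and 68.3 FPKM alone, where replicate 3 was the highest of the 6. TPM1 stood at 8.29 ± 0.710 FPKM with HCCLM3 and 6.95 ± 0.852 FPKM alone and was not called, though it was without LX2 alone replicate 3 (adjusted p = 0.0465).

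The genes of filament supply fell in LX2. VASP stood at 17, 16.7 and 16.3 FPKM in LX2 with HCCLM3 and at 23.3, 22.6 and 24.3 FPKM in LX2 alone, a 1.43-fold fall (log2 fold change -0.52, SE 0.042; adjusted p = 0.000266). PFN1 stood at 320.1, 325 and 336 FPKM in LX2 with HCCLM3 and at 368, 368 and 360.0 FPKM in LX2 alone (log2 fold change -0.19; adjusted p = 0.00238). CFL1 stood at 34.9, 56.0 and 38.5 FPKM with HCCLM3 and at 65.5, 63.1 and 65.0 FPKM alone. The groups of CFL1 did not overlap, but its fall (log2 fold change -0.61; adjusted p = 0.0376) was lost when any library but LX2 with HCCLM3 replicate 2 was left out (up to 0.115). ACTB stood at 341, 403 and 405 FPKM with HCCLM3 and at 464, 454 and 455 FPKM alone (log2 fold change -0.29; adjusted p = 0.0196), a call lost without LX2 alone replicate 1 or 3 (0.0589 and 0.0518). ACTG1 stood at 287, 248 and 259 FPKM with HCCLM3 and at 350.3, 505 and 320 FPKM alone, where replicate 2 was high. Its fall (log2 fold change -0.60; adjusted p = 0.039) was lost without LX2 alone replicate 1 or any of the co-cultured libraries (adjusted p 0.0575 to 0.115).

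Crosslinkers of LX2 parted as well. FLNA stood at 209, 210.0 and 213 FPKM in LX2 with HCCLM3 and at 250, 248 and 244 FPKM in LX2 alone, a tight 1.2-fold fall (log2 fold change -0.26, SE 0.016; adjusted p = 6.9e-05). LIMA1 stood at 30.1, 28.8 and 30.1 FPKM in LX2 with HCCLM3 and at 24.9, 22.3 and 22.3 FPKM in LX2 alone, a 1.26-fold rise (log2 fold change 0.33, SE 0.051; adjusted p = 0.00391). ACTN4 had a log2 fold change of -0.21 (adjusted p = 0.047), lost without LX2 alone replicate 1 or 3 or LX2 with HCCLM3 replicate 2 or 3 (up to 0.132), and ACTN1 was not called. MYH9 stood at 86.6, 87.0 and 86.6 FPKM with HCCLM3 and at 95.7, 94.5 and 94.3 FPKM alone, a small fall well outside the spread (log2 fold change -0.16, SE 0.017; adjusted p = 0.000847). MYH10, MYL9, PDLIM5 and CNN2 were not called. SRF stood at 13.7 ± 0.653 FPKM with HCCLM3 and 13.0 ± 0.383 FPKM alone (interval of the log2 fold change -0.069 to 0.18).

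CNN3 was called in LX2 at a very low level. It had 37, 44 and 38 counts in LX2 with HCCLM3 and 8, 6 and 15 counts in LX2 alone (log2 fold change 1.92, SE 0.418; adjusted p = 0.0149). The call was lost without LX2 alone replicate 1 (0.0525) or LX2 with HCCLM3 replicate 2 (0.0533). The mean rise, 0.127 FPKM, was 0.534% of the level of CNN3 in HCCLM3 alone, and 0.483% to 0.614% by library. Across 56 genes that HCCLM3 alone carried at 20 FPKM or more and LX2 alone at under 0.1 FPKM, the median rise in LX2 with HCCLM3 was 0.489% to 0.629% of the HCCLM3 level per library. Whether the CNN3 counts of LX2 with HCCLM3 came from LX2 cells was not tested. ACTA2 averaged 0.0121 FPKM in HCCLM3 alone, and its mean rise in LX2 was 1.44 FPKM.

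**Figure D3:**
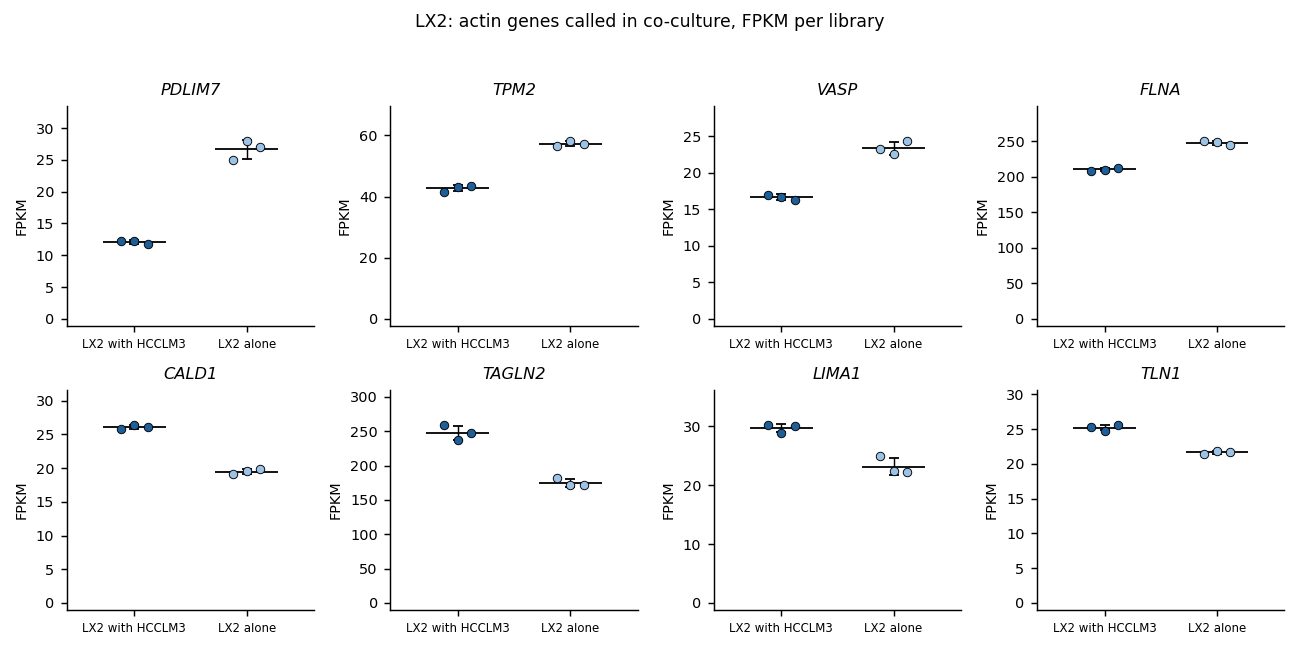
Level in FPKM (linear axes from 0) of 8 called genes in LX2 with HCCLM3 and LX2 alone. Points are libraries, lines means and bars 1 SD (n = 3). PDLIM7, TPM2, VASP and FLNA are lower in each library with HCCLM3, and CALD1, TAGLN2, LIMA1 and TLN1 are higher.

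Across the lines, 29 members were tested in both. ACTG1, ACTN4, CFL1, FLNA, MYH9, VASP and ZYX were lower in both lines (7 members), beside 3.7% of the 16155 genes tested in both. CNN3 and LPP were higher in both, beside 2.63% of genes. The rise of CNN3 in LX2 was only 0.534% of its level in HCCLM3 alone. Whether those counts came from LX2 cells was not tested. LIMA1 and TLN1 fell in HCCLM3 and rose in LX2, beside 2.15% of genes. Many of these calls rest on all 6 libraries of a line. In HCCLM3 those of ACTN4, VASP, LIMA1 and TLN1 were each lost in 5 of 6 fits with 1 library left out. In LX2 that of CFL1 was lost in 5 of 6, those of ACTG1, ACTN4 and ZYX in 4 of 6, that of LPP in 3 of 6 and that of CNN3 in 2 of 6. Of the members called in both lines, FLNA and MYH9 kept both calls with each library left out. With 1 fit over all 12 libraries their LX2 calls were lost (edgeR adjusted p = 0.0924 and 0.196). On library totals the HCCLM3 calls of ACTG1, ACTN4, LIMA1, TLN1 and VASP were lost (edgeR adjusted p 0.0561 to 0.253). The LX2 call of ACTN4 was lost there too (0.0779). ACTN1 and SRF were called, as lower, in the HCCLM3 line and not in the LX2 line. In the LX2 line and not in the HCCLM3 line, CALD1 and TAGLN2 were called higher and ACTB, PDLIM7, PFN1, TGFB1I1 and TPM2 lower. CNN2, MYH10, MYL9, PDLIM5, TAGLN, TPM1, TPM4, VCL and VIM were called in neither line (9 members).

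Whether the change itself differed was tested over all 12 libraries as the change in HCCLM3 minus the change in LX2. Of 30 members tested, 9 differed, beside a background of 21.2% of 21511 genes, 2 with a higher change in HCCLM3 and 7 with a lower one (9.65% and 11.5% of all genes). PDLIM7 differed most, by 1.22 log2 units (SE 0.141; edgeR quasi-likelihood Benjamini-Hochberg adjusted p = 0.000142). It stood at 6.10 ± 0.634 FPKM in HCCLM3 with LX2 and 5.13 ± 0.667 FPKM in HCCLM3 alone, so its fall in LX2 had no counterpart in HCCLM3. LPP differed by 0.91, its rise being larger in HCCLM3. FLNA (-0.66) and MYH9 (-0.48) fell more in HCCLM3 than in LX2, and SRF (-0.46) was called in HCCLM3 only. LIMA1 (-0.87), TLN1 (-0.60) and CALD1 (-0.44) had risen in LX2. CALD1 was not called on library totals (-0.26; adjusted p = 0.098). CNN3 differed by -0.96 on counts, was not called with LX2 alone replicate 1 or 2 or LX2 with HCCLM3 replicate 2 left out (adjusted p 0.0504 to 0.0802), and turned to 0.96 with limma on log2(FPKM + 1), a scale that shrinks changes of low genes, and to 0.23 (not called) on log2(FPKM + 0.1). ZYX narrowly missed (-0.45; adjusted p = 0.0522). For ACTG1 the interval of the difference ran from -0.47 to 0.49, for VASP from -0.37 to 0.30 and for CFL1 from -0.42 to 0.53, so no difference was resolved for them. ACTA2 gave no usable difference, since HCCLM3 held 11 counts of it at most.

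**Figure D4:**
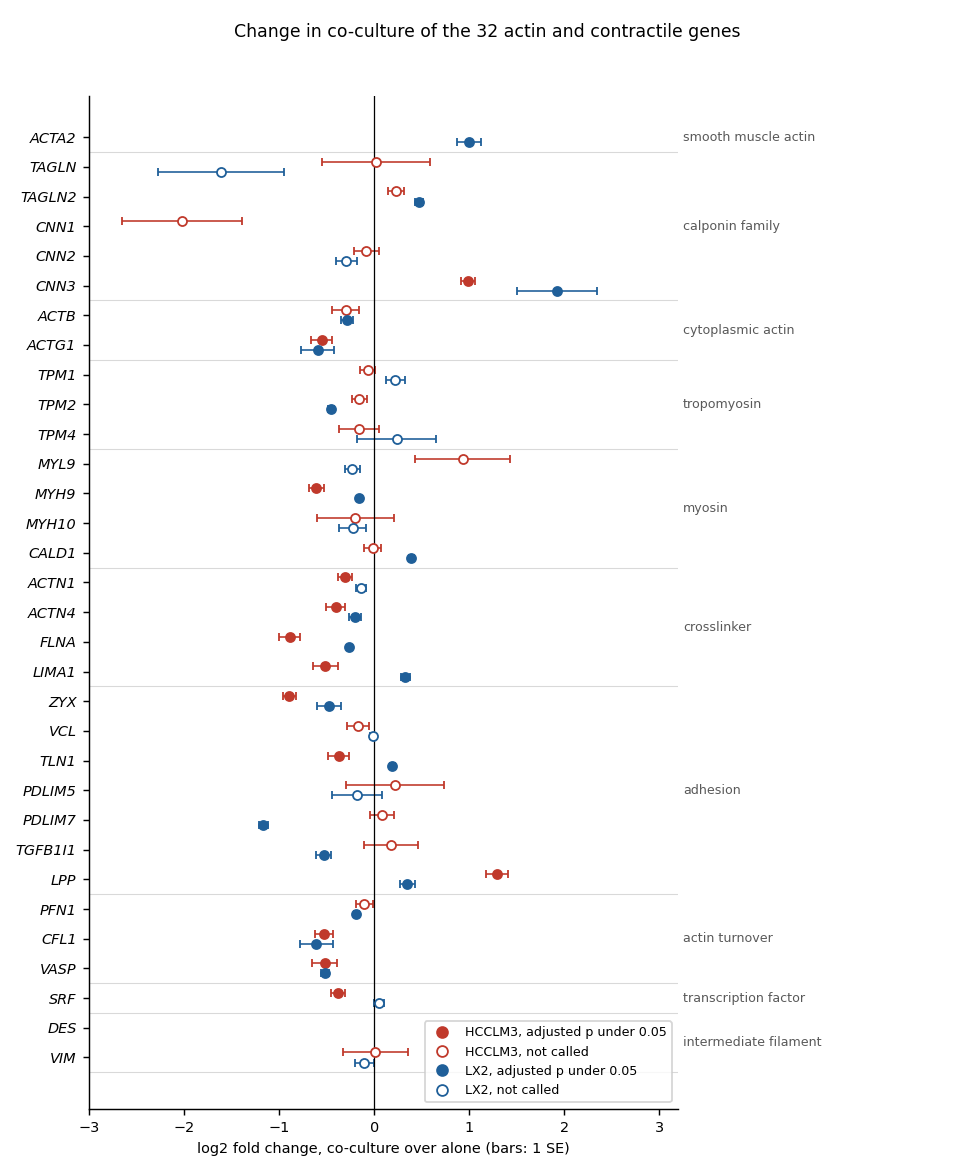
Log2 fold change of co-culture over alone for the 32 genes by role, in HCCLM3 (red) and LX2 (blue), with bars of 1 SE. Filled points have an adjusted p under 0.05. Crosslinkers and cytoplasmic actins lie left of 0 in both lines except LIMA1 in LX2, and ACTA2 has a point in LX2 only.

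The other genes of the actin machinery, a list of 78 that are no members, were counted in the same way. In HCCLM3, 72 were tested, 19 fell and 2 rose (29.2% called, beside 21.7% of all genes). That split rests on TMM scaling: on library totals 10 were lower and 11 higher, and with limma on log2(FPKM + 1) 10 were lower and 10 higher. In LX2, 73 were tested, 28 fell and 9 rose (50.7% called, beside 31.9%). DSTN (destrin, a cofilin relative) fell in both lines, at 91.1 ± 1.83 FPKM in HCCLM3 with LX2 and 119 ± 2.55 FPKM in HCCLM3 alone, and at 70.6 ± 0.746 FPKM in LX2 with HCCLM3 and 84.5 ± 1.62 FPKM in LX2 alone. DIAPH1, a formin that elongates filaments, fell in HCCLM3 (17.9 ± 1.08 FPKM with LX2 and 23.6 ± 0.817 FPKM alone) and rose slightly in LX2 (31.8 ± 0.690 FPKM with HCCLM3 and 28.9 ± 0.459 FPKM alone).

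RHOB, a small GTPase whose gene responds quickly to stress and growth factors, moved in opposite directions. It stood at 15.6, 17.4 and 15.5 FPKM in HCCLM3 with LX2 and at 23.7, 24.6 and 22.6 FPKM in HCCLM3 alone, and at 288, 291 and 294 FPKM in LX2 with HCCLM3 and 145, 142 and 139 FPKM in LX2 alone. Its change in HCCLM3 was 1.75 log2 units below that in LX2 (difference -1.75, SE 0.076; edgeR adjusted p = 2.45e-07). Of the monomer-binding thymosins, TMSB10 moved in opposite directions too. TMSB10 stood at 4121 ± 255.4 FPKM in HCCLM3 with LX2 and 2414 ± 255.1 FPKM in HCCLM3 alone, and at 1573 ± 2.37 FPKM in LX2 with HCCLM3 and 2131 ± 10.3 FPKM in LX2 alone (difference 1.04; adjusted p = 9.75e-05). TMSB4X stood at 798, 814 and 781 FPKM in LX2 with HCCLM3 and at 1641, 1701 and 1693 FPKM in LX2 alone, a 2.15-fold fall (adjusted p = 1.09e-06), and was not called in HCCLM3 (log2 fold change 0.30; adjusted p = 0.0513).

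In LX2 the essential myosin light chain MYL6 fell 2.11-fold, with 27.0, 25.9 and 26.7 FPKM with HCCLM3 and 55.2, 56.1 and 53.3 FPKM alone, and MSN (moesin, which ties filaments to the membrane) fell 1.44-fold. SYNM (synemin, an intermediate filament protein that pairs with vimentin and desmin) rose 2.36-fold, with 32.6, 33.2 and 33.0 FPKM in LX2 with HCCLM3 and 13.5, 13.6 and 13.9 FPKM in LX2 alone. WASF2, an activator of branched actin, rose 1.63-fold, and TNS1 (tensin 1) rose 5.56-fold at a level of 0.128 ± 0.00887 FPKM with HCCLM3 and 0.0224 ± 0.00791 FPKM alone. ARPC4, a subunit of the branching complex, rose in HCCLM3 (50.9 ± 0.695 FPKM with LX2 and 37.2 ± 1.82 FPKM alone; edgeR adjusted p = 0.0328). Of the 6 fits there with 1 library left out, only that without HCCLM3 alone replicate 1 kept this call. ARPC4 fell in LX2 (27.6 ± 5.22 FPKM with HCCLM3 and 42.4 ± 0.618 FPKM alone). TNS1 had an adjusted p of 0.0605 with 1 fit over all 12 libraries. Without HCCLM3 with LX2 replicate 3, 12 of the other actin genes were called in HCCLM3 in place of 21.

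**Figure D5:**
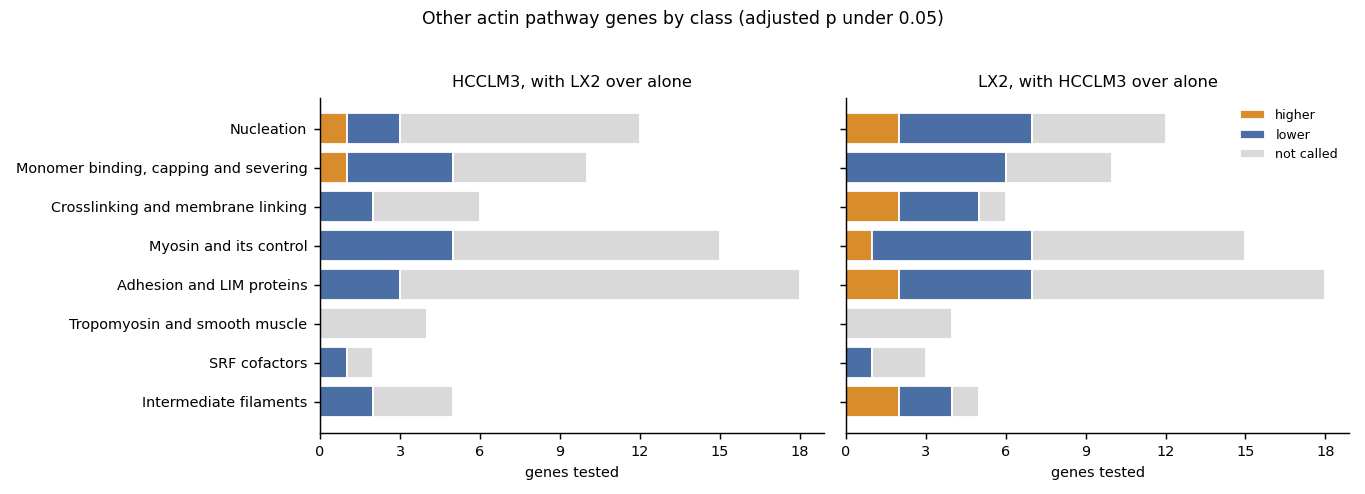
Number of the other actin machinery genes tested in each class (horizontal axis) and how many were higher, lower or not called in co-culture, in HCCLM3 and LX2. With TMM scaling, 19 of 21 called genes are lower in HCCLM3 and 28 of 37 in LX2, against 10 of 21 and 26 of 39 on library totals. The intermediate filament class of LX2 has 2 higher, 2 lower and 1 not called.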

How the data were processed

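Polyadenylated RNA of 12 libraries was sequenced by the authors. The deposited tables, 1 per line, give raw read counts per gene and FPKM, per the file headers. Per the submitters' processing notes, the tools were Bowtie 0.12.2, HISAT2 2.0 and StringTie 1.3.0, and the build named there, mm8, is a mouse build, although gene IDs and names are human. The strand setting of the counting is unknown here. Counts were tested within each line with the quasi-likelihood test of edgeR 4.0.16 (TMM scaling, filterByExpr with a minimum count of 10 and total of 15), with Benjamini-Hochberg adjustment over all genes tested, two-sided. The difference between lines was fitted over 12 libraries. SEs are the log2 fold change over the square root of F, and intervals are 95% on the t distribution. Alternatives used DESeq2 1.42.0 and limma 3.58.1, on log2(FPKM + 1) or log2(FPKM + 0.1), in R 4.3.3. FPKM was compared between lines as a description. The floor of 3 counts covers counting error only. Scripts were tested on simulated data. Replicates differed by more than sampling noise (chi-square over its degrees of freedom, 35.9 to 90.9) and were all kept apart. The members and lists were chosen with earlier results of these data known. Library values are given for the activation markers and for the 12 other called members per line with the smallest p. They are also given for ACTB and TAGLN2 in HCCLM3 and ACTB, ACTG1, CFL1 and TPM4 in LX2, chosen after their values were seen. All members are named, and, among the other actin genes, up to 4 higher and 4 lower per line with the smallest p among those called. A gene that this rule names is not reported here. Gene coordinates are those given with the deposited counts. Start, end or both matched GENCODE 29 (GRCh38) for 27 of the 32 members, and for 90.5% of the 58394 HCCLM3 identifiers found there.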

Additional observations from a re-analysis of the deposited data

Results flagged for a closer look

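The change with co-culture differed between the lines for 9 of the 30 actin genes tested (30%, beside 21.2% of 21511 genes), by a test of the difference itself (edgeR quasi-likelihood test with Benjamini-Hochberg adjustment, change in HCCLM3 minus change in LX2, 6 libraries per line). PDLIM7 (1.22; adjusted p = 0.000142) and LPP (0.91; adjusted p = 0.00118) had the higher change in HCCLM3. LIMA1 (-0.87; adjusted p = 0.00219), FLNA (-0.66; adjusted p = 0.00272), TLN1 (-0.60; adjusted p = 0.00369), MYH9 (-0.48; adjusted p = 0.00201), SRF (-0.46; adjusted p = 0.00218) and CALD1 (-0.44; adjusted p = 0.00609) had the lower one. CNN3 (-0.96; adjusted p = 0.0186) rests in LX2 on 6 to 44 counts per library.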

How the results depend on the processing

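In HCCLM3 the 13 called members became 7 on library totals and 8 with limma on log2(FPKM + 1) or log2(FPKM + 0.1). With 1 library left out they were 6 to 10. In LX2 the 19 became 11 in 1 fit over all 12 libraries, and 12 to 18 with 1 library left out. The 9 differences between lines became 8 to 11 with 1 library left out. Called genes among the other actin genes were 12 to 18 in HCCLM3, against 21, and 34 to 37 in LX2, against 37. DESeq2 called 14 members in HCCLM3, 22 in LX2 and 12 differences. The difference of CNN3 reversed to 0.96 with limma on log2(FPKM + 1), a scale that shrinks changes of low genes, and to 0.23 on log2(FPKM + 0.1), where it was not called (adjusted p = 0.333). No other call of a named member reversed, and the cause of the other losses was not tested. Members that were not called could change sign. MYH10 in HCCLM3, with a log2 fold change of -0.20, ranged from -0.39 to 0.26 with 1 library left out. Deviations of same-numbered libraries had correlations of 0.0171 to 0.0452 in HCCLM3 and -0.0408 to 0.0115 in LX2. Other pairs had -0.0295 to 0.00711 in HCCLM3 and -0.0248 to 0.066 in LX2. Correlations this small, over few libraries, do not settle whether the numbers pair them. With a replicate block 13 members were called in HCCLM3, 15 in LX2 and 11 differences, and 24 and 36 of the other actin genes. The block lost ACTG1 (-0.57), CFL1 (-0.64), CNN3 (1.99) and LPP (0.35) in LX2. Counts were low, at most 46 in any library, for ACTA2, DES and CNN1 in HCCLM3 and for DES and CNN3 in LX2.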
